A study of Mus musculus with 14 samples.

Results

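The STEAP metalloreductases are 4 genes, Steap1, Steap2, Steap3 and Steap4, and all 4 were found by symbol among the 51211 gene symbols of each of the 2 tables of normalized counts from olfactory epithelium of mouse pups. The family was selected on the values of the PEA comparison, in which Steap1 and Steap2, neighbours on chromosome 5, moved together after exposure to 2-phenylethylamine (PEA). That comparison is therefore given here as a description with no test, whereas the Kir2.1 comparison was not used in the choice and was tested.

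RNA was measured in 14 pups at postnatal day 5 (P5), with 1 pup per library. In the Kir2.1 experiment, 3 mice labelled Kir2.1-Off, carrying both OMP-IRES-tTA and tetO-Kir2.1-IRES-tauLacZ, were compared with 3 controls heterozygous for OMP-IRES-tTA alone, so both groups carry the tTA allele. The transactivator comes from the locus of Omp, a gene of mature olfactory sensory neurons (OSNs), and drives the potassium channel Kir2.1 (Kcnj2), which dampens spontaneous firing. The name Kir2.1-Off is used in the study for adults in which doxycycline later stopped the transgene, whereas these mice were taken as pups and are called Kir2.1 mice here. In the PEA experiment, 4 wild-type pups kept with PEA from P0 until P5 were compared with 4 unexposed wild-type pups. PEA is an amine odor that mice innately avoid. For early exposure the study kept the odor vial in a cage shared by mother and pups. The litter of each pup is not given, so exposure cannot be told apart from litter or cage. The labels name C57BL/6 as the strain of every mouse, and the methods of the study name CD-1 pups for odor exposure.

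Mean Kcnj2 was 1111 in control and 20216 in Kir2.1 mice, with transgene reads and those of the mouse's own gene not separated. Markers of mature OSNs and of sustentacular cells, the supporting cells of the epithelium, were abundant in both experiments. The summed mature OSN markers did not overlap in the Kir2.1 experiment (125967 to 139622 in controls and 92326 to 104638 in Kir2.1 mice) and overlapped in the PEA experiment. Vomeronasal receptor genes, which belong to a neighbouring sense organ, were high in Kir2.1 control 1 (mean log2 value 6.06, against 2.35 to 2.45 in the other 5 mice), in PEA controls 1, 2 and 3 (3.91 to 5.77) and in PEA exposed mouse 1 (5.33). Xist, which marks females, was high in 2 of 3 mice of each Kir2.1-experiment group, in 2 of 4 PEA controls and in 3 of 4 PEA exposed mice. Summed over all genes, the values of 1 mouse came to 33049111 to 34198478 in the Kir2.1 experiment and to 11476120 to 12467331 in the PEA experiment, and read depth is not known from them.

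STEAP proteins sit in membranes and pass electrons through a heme to ferric iron or cupric copper, the step that lets the reduced metal enter a cell or leave an endosome. Steap2, Steap3 and Steap4 carry a cytosolic domain that takes the electrons from NADPH, whereas Steap1 lacks that domain and is known to pair with other STEAP proteins. Steap3 is known as the endosomal ferrireductase of red cell precursors, where it works beside the transferrin receptor Tfrc and the iron transporter Slc11a2 (DMT1). Steap4 is known from fat tissue and liver and as a gene that inflammatory signals induce.

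On the mouse genome (GRCm38), Steap2 (ENSMUSG00000015653) occupies chr5:5664829-5694578 and Steap1 (ENSMUSG00000015652) chr5:5736317-5749326. Both are read from the minus strand and are separated by 41738 bases. Steap4 (ENSMUSG00000012428) lies 2.21 Mb beyond Steap1 at chr5:7960457-7982213 on the plus strand, and Steap3 (ENSMUSG00000026389) lies on another chromosome at chr1:120190757-120272705 on the minus strand. No annotated gene overlaps any of the 4.

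The promoters of the 3 genes whose groups did not overlap in the PEA experiment are shown because Steap1 and Steap2 are neighbours with separate starts. They are RefSeq sequences of build GRCm38.p6, each from 250 bases before to 50 bases after an annotated start, on the strand of the gene. Capitals mark matches, on either strand, to the GC box GGGCGG, the TATA box TATAAA, the CCAAT box CCAAT, the STAT core TTCNNNGAA, the metal response core TGCGCNC and the antioxidant response core TGACNNNGC. Of the 3 annotated Steap2 starts the outer ones are printed.
Steap1, chr5:5749268-5749567, minus strand: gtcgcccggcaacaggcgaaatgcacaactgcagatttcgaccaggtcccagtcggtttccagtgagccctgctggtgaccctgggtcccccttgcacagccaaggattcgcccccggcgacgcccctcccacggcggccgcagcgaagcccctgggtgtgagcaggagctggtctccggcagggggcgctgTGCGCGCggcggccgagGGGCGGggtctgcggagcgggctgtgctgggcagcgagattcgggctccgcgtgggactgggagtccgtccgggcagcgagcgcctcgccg
Steap2, first start, chr5:5694519-5694818, minus strand: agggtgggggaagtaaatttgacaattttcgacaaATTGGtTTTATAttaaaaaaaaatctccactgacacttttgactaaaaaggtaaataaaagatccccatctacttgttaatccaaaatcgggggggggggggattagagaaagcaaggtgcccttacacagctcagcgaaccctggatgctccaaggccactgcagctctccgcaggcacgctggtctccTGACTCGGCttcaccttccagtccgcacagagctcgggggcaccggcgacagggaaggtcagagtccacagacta
Steap2, last start, chr5:5694040-5694339, minus strand: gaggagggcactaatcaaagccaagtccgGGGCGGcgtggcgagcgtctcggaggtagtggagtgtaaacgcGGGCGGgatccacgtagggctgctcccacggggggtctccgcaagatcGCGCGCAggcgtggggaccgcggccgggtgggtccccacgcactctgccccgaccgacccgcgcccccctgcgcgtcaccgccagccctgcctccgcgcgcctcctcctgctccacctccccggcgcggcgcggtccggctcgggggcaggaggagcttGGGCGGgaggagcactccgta
Steap4, chr5:7960222-7960521, plus strand: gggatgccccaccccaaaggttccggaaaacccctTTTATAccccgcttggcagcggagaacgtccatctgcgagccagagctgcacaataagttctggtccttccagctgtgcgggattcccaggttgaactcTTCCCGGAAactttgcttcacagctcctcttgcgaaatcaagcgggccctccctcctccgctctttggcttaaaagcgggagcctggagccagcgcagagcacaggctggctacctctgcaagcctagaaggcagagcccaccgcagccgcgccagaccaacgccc

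The Steap1 promoter had 72.3% G and C, that of the last Steap2 start 74.3% and that of the first Steap2 start 50%, against a median of 52.7% over 32851 mouse promoters. The Steap1 promoter and that of the last Steap2 start each held a GC box (present in 35.7% of all promoters) and the metal response core (15.4%). The first Steap2 start had a TATA box and a CCAAT box on the other strand, more than 200 bases before the start, and an antioxidant response core (12.4% of all promoters) at position -25. The STAT core, found in 8.30% of promoters, was present at -135 of the middle Steap2 start and at -116 of Steap4, and in none of the Steap1 and Steap3 promoters. The 4 annotated Steap3 starts held GC boxes at 2 starts and a CCAAT box at another. Neither the second form of the metal response core, TGCACNC, nor the AP-1 (TGANTCA), EBF and CRE (TGACGTCA) motifs had a match in any of the 9 promoters. These matches are letters in a window and were not tested as binding sites.

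After PEA exposure, Steap1 and Steap2 transcripts were several-fold higher, Steap4 was less than 2-fold higher, and Steap3 was at the level of the controls. Steap1 had normalized counts of 59.9, 128, 36.7 and 58.1 in the 4 control mice and of 309, 284, 252 and 263 in the 4 exposed mice. All exposed mice lay above all controls, and the lowest exposed mouse was 1.97 times the highest control. The means were 70.7 ± 39.6 and 277 ± 25 (SD, n = 4 per group), and the difference was 2.099 on the scale of log2(normalized count + 1).

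Steap2 was separated in the same way at a higher count. Its values were 336, 819, 338 and 421 in controls and 1643, 1535, 1513 and 1522 in exposed mice. The exposed mice stood close together while the controls were spread, and the lowest exposed mouse was 1.85 times the highest control. The means were 478 ± 230 and 1553 ± 60.6 (SD, n = 4 per group), a log2 difference of 1.80.

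Control mouse 2 had the highest Steap1, Steap2 and Steap4 of its group. Without it, the log2 differences were 2.43 for Steap1, 2.09 for Steap2 and 0.96 for Steap4. The coefficient of variation among controls was 56.0% for Steap1 and 48.2% for Steap2, against 9.02% and 3.90% among exposed mice. Without control mouse 2 it was 25% and 13.4% among the other 3 controls.

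Steap4 is the member introduced above as known from fat tissue and as induced by inflammatory signals. Its values were 352, 481, 267 and 419 in controls and 744, 558, 695 and 668 in exposed mice. The groups did not overlap, but exposed mouse 2 was only 1.16 times the highest control. The means were 380 ± 91.6 and 666 ± 78.7 (SD, n = 4 per group), a log2 difference of 0.83. Adipocyte markers summed over 5 genes to 48.5 to 76.0 in controls and 35.6 to 58.6 in exposed mice. Most of that sum was Fabp4 (means 53.2 and 33.6), whereas Plin1, Cidec and Lep had means under 2. The summed inflammatory list, which holds Il1b, Socs3 and 7 others, overlapped (358 to 490 and 399 to 522). Its 4 tested genes all had differences above 0 (median log2 difference 0.27), and 0 of them had an unadjusted p under 0.05 by limma. The part of fat cells or inflammatory signals in the Steap4 values was not tested.

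Steap3 had the lowest values of the family, 37.3, 28.4, 29.5 and 40.2 in controls and 37.9, 37.5, 25.7 and 29.2 in exposed mice. The groups overlapped throughout, with means of 33.9 ± 5.80 and 32.6 ± 6.09 (SD, n = 4 per group) and a log2 difference of -0.06.

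**Figure D1:**
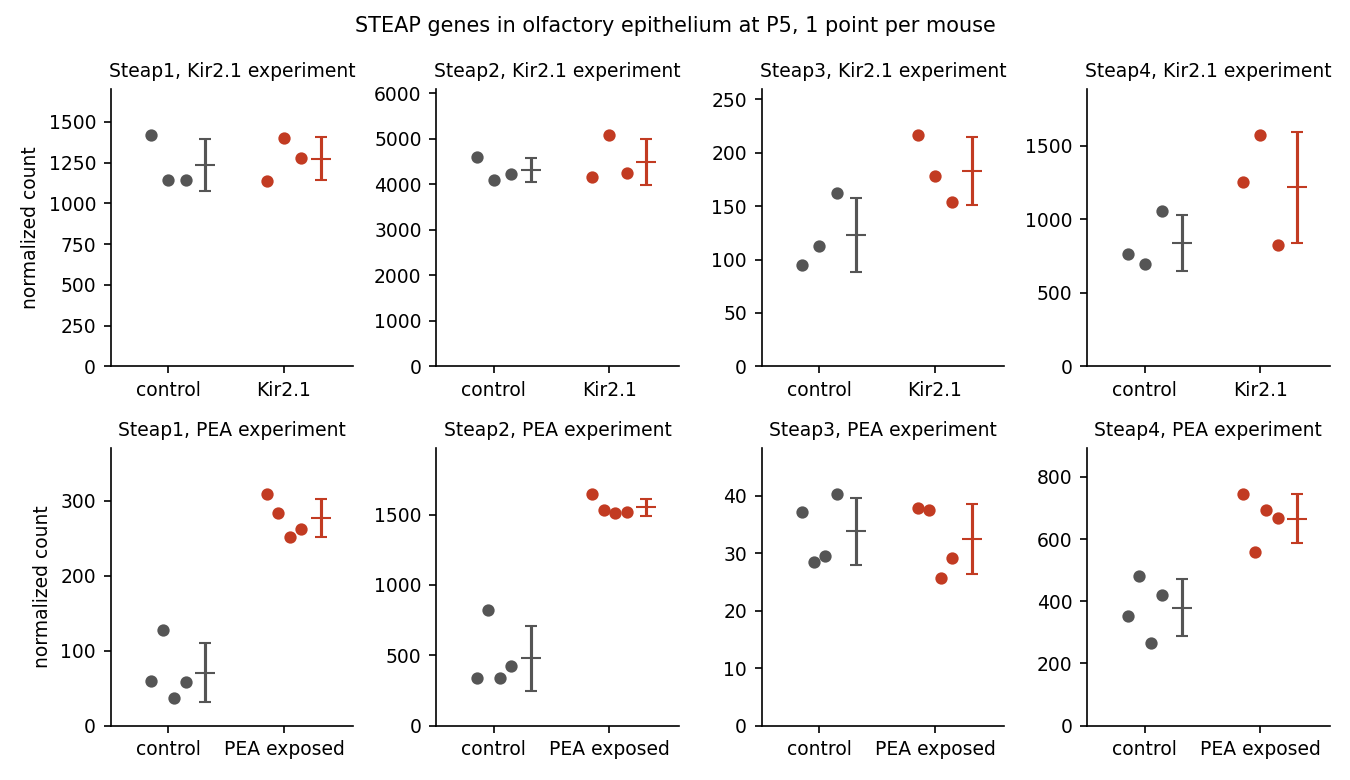
Normalized counts of the 4 STEAP genes (vertical axis, from 0) in each mouse of the Kir2.1 experiment (top) and the PEA experiment (bottom). Points are mice, and the bars beside them are the mean with its SD (n = 3 or 4 per group). Steap1, Steap2 and Steap4 of the 4 PEA exposed mice lie above every control, whereas the groups overlap for Steap3 and for all 4 genes in the Kir2.1 experiment.

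After exposure 3 of the 4 members had groups that did not overlap, all with the exposed mice higher. Over all 17322 genes tested, 5.46% had exposed mice above all controls and 0.179% were called, with an adjusted p below the threshold of 0.05 (limma, Benjamini-Hochberg). No test result is given for the members, because the same contrast chose them. The Steap1 and Steap2 differences stood at the 99.7 and 99.6 percentiles of all genes, Steap4 at 97.9 and Steap3 at 44.5.

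Some sums of cell type markers did not overlap either. Summed markers of horizontal basal cells, the reserve stem cells of the epithelium, were 739 to 908 in controls and 989 to 1162 in exposed mice. In that list of 4 genes, Krt5 and Krt14 had an unadjusted p under 0.05 by limma and 0 were called after adjustment. Krt14 alone had groups that did not overlap, and the log2 differences of Trp63 and Icam1 were 0.003 and 0.25. Summed osteoblast markers were 957 to 2580 in controls and 742 to 802 in exposed mice. No other of the 17 marker lists had sums that did not overlap in this experiment. A sum follows its most abundant genes, and the Bowman gland sum (control mean 723320) was nearly all Bpifb9b (720624). Of the 5 Bowman gland genes, Aqp5 and Ascl3 were higher at an unadjusted p under 0.05 by limma, as were 8.93% of all genes. Sox9 and Bpifb9b had differences below 0, and 0 of the 5 were called. The part of any of these cell types in the STEAP differences was not tested. In whole tissue, fewer cells of a type and less RNA per cell cannot be told apart. With the Xist level as a covariate the log2 differences of Steap1, Steap2 and Steap4 were 2.18, 1.85 and 0.87, and with the vomeronasal receptor level they were 2.21, 1.83 and 0.86.

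**Figure D2:**
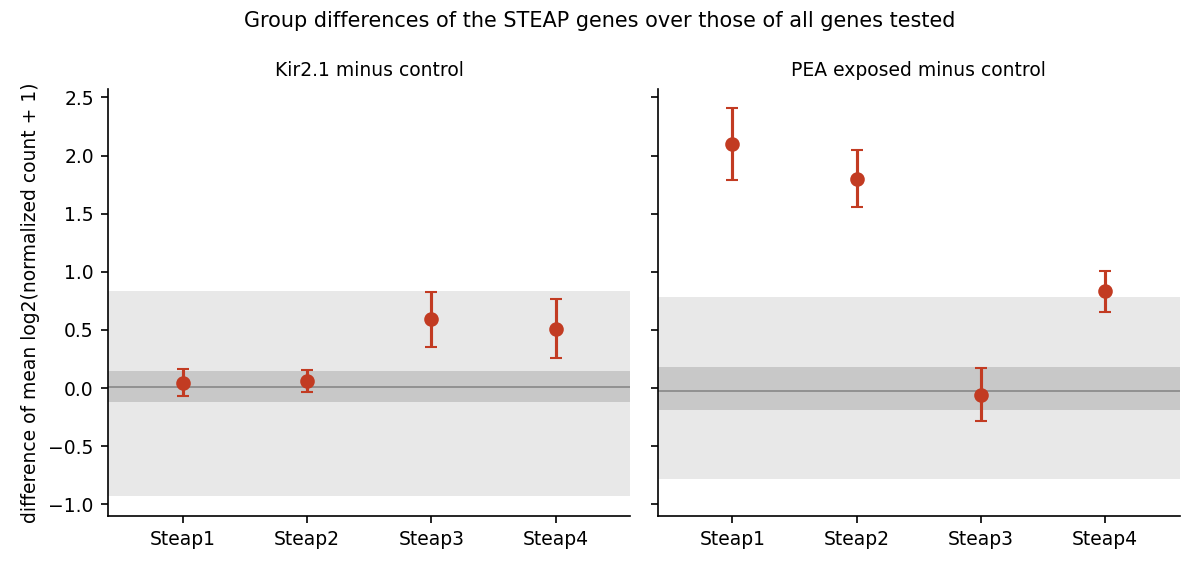
Difference of mean log2(normalized count + 1) between treated and control mice for the 4 STEAP genes in both experiments, with the SE of the limma fit as bars. The shaded bands hold the middle 50% and 95% of the differences of all genes tested and the grey line is their median. Steap1 (2.099), Steap2 (1.80) and Steap4 (0.83) lie above the wide band in the PEA experiment, where no test is given, and all 4 genes lie within it in the Kir2.1 experiment.

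In the Kir2.1 experiment, which asks what silencing of OSNs does, none of the 4 genes was called. Over all 19807 genes tested in this experiment 0.353% were called at an adjusted p under 0.05. Steap3 alone had an unadjusted p under 0.05, as did 11.1% of all genes (4.93% higher and 6.2% lower). All 4 members had groups that overlapped, whereas 16.3% of all genes had groups that did not.

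Steap1 had values of 1419, 1144 and 1142 in the 3 controls and of 1138, 1404 and 1282 in the 3 Kir2.1 mice. The groups overlapped fully, with means of 1235 ± 159 and 1275 ± 133 (SD, n = 3 per group). The log2 difference was 0.05 (SE 0.12, adjusted p = 0.937 by limma), and its 95% interval ran from -0.23 to 0.33, or from 0.850-fold to 1.26-fold.

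Steap2 had values of 4603, 4096 and 4223 in controls and of 4167, 5082 and 4243 in Kir2.1 mice. These overlapped as well, and the means were 4307 ± 264 and 4497 ± 508 (SD, n = 3 per group). The log2 difference was 0.06 (SE 0.10, adjusted p = 0.894 by limma), with an interval from 0.890-fold to 1.22-fold.

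Steap4 had values of 764, 698 and 1055 in controls and of 1257, 1572 and 823 in Kir2.1 mice. Kir2.1 mice 1 and 2 lay above all controls and Kir2.1 mouse 3 lay among them. The means were 839 ± 190 and 1217 ± 376 (SD, n = 3 per group), and the log2 difference was 0.51 (SE 0.25, adjusted p = 0.536 by limma). The interval, from 0.942-fold to 2.15-fold, holds both no change and a doubling, so a difference was not resolved with 3 mice per group. The summed inflammatory list did not overlap here (1924 to 2030 in controls and 2115 to 2570 in Kir2.1 mice, 0 of 5 tested genes with an unadjusted p under 0.05), and its part in the Steap4 values was not tested. Adipocyte markers summed to 29.4 to 44.5 in controls and 39.1 to 84.2 in Kir2.1 mice, and Lep was listed at 0 in all 6.

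Steap3 had values of 94.4, 113 and 162 in controls and of 216, 178 and 154 in Kir2.1 mice. Only the lowest Kir2.1 mouse fell below the highest control. The means were 123 ± 34.9 and 183 ± 31.4 (SD, n = 3 per group), with a log2 difference of 0.59 (SE 0.23, unadjusted p = 0.0389 and adjusted p = 0.410 by limma) and an interval from 1.03-fold to 2.21-fold that is not adjusted for the number of genes.

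Erythroid markers also stood higher in the Kir2.1 mice. The sum of the 8 genes of that list, among them the globins Hba-a1 and Hbb-bs, was 11088 to 20051 in controls and 20325 to 33750 in Kir2.1 mice. Of the 6 genes tested, 5 were higher at an unadjusted p under 0.05 by limma and 0 were called. In the PEA experiment the same sum overlapped (1783 to 2821 in controls and 1941 to 3470 in exposed mice). Summed markers of respiratory ciliated cells (13298 to 16250 in controls and 16792 to 25109 in Kir2.1 mice) and of skeletal muscle (125 to 141 and 151 to 167) did not overlap either. The part of these cells in the Steap3 signal was not tested.

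The family also differed in level, and levels of different genes were compared per kilobase of exon. Exon lengths, as the union over annotated transcripts, were 1377 bases for Steap1, 12144 for Steap2, 5715 for Steap3 and 3155 for Steap4. The transcripts present may be shorter than this union, so the order of genes below depends on it. By normalized count Steap2 was above Steap1 in every mouse. In Kir2.1 controls Steap1 was highest (829.3 to 1030 normalized counts per kb), followed by Steap2 (337 to 379), Steap4 (221 to 334) and Steap3 (16.5 to 28.3), and no 2 neighbours in this order overlapped. In Kir2.1 mice the order of Steap2 (343 to 418) and Steap4 (261 to 498) was not resolved.

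In PEA controls Steap4 had the highest mean. Its level was 84.7 to 152 normalized counts per kb, a range that overlapped that of Steap1 (26.7 to 92.9). Within every control mouse, however, Steap4 was above Steap1. The range of Steap1 in turn overlapped that of Steap2 (27.7 to 67.4). In exposed mice Steap4 (177 to 236) and Steap1 (183 to 224) were at one level, Steap2 stood below them (125 to 135), and Steap3 remained lowest (4.49 to 6.63). The experiments used different library types and were normalized separately, so no level is compared across them.

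**Figure D3:**
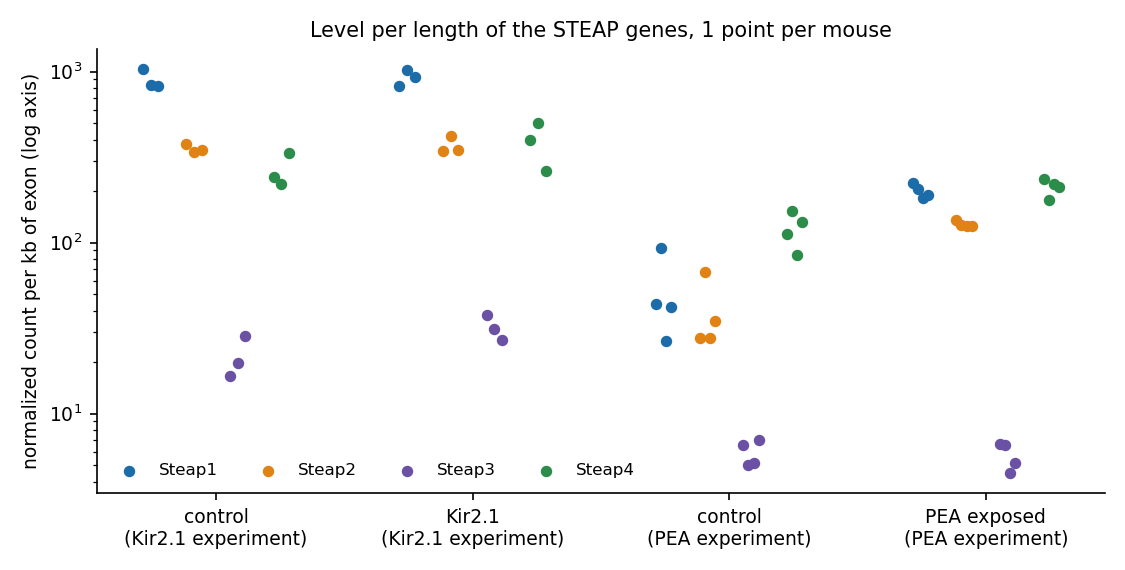
Normalized counts per kilobase of exon (log axis) of the 4 STEAP genes in the 4 groups, with 1 point per mouse. In both Kir2.1-experiment groups Steap1 is highest, in PEA exposed mice Steap1 and Steap4 share the top, and Steap3 is lowest in every mouse.

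Steap1 and Steap2 were compared within each mouse. The ratio of Steap2 to Steap1 normalized counts was 3.24 to 3.70 over the 6 mice of the Kir2.1 experiment, in which neither gene was called. Among PEA mice the ratio was 5.603, 6.40, 9.19 and 7.25 in controls and 5.32, 5.40, 6.00 and 5.78 in exposed mice, a narrower range after exposure that partly overlapped the controls. The ratio of Steap4 to Steap2 was 0.587 to 1.05 in PEA controls and 0.363 to 0.459 in exposed mice, without overlap.

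As deviations from group means, the log2 values of Steap1 and Steap2 correlated at r = 0.85 over the 6 mice of the Kir2.1 experiment and at r = 0.92 over the 8 mice of the PEA experiment. For Steap1 and Steap4 these values were 0.01 and 0.80, for Steap2 and Steap4 0.50 and 0.74, and for Steap3 and Steap4 0.66 and -0.01. PEA control 2 weighs heavily in the value of 0.92, with log2 values of 7.01 for Steap1 and 9.68 for Steap2. The other PEA controls had 5.24 to 5.93 and 8.40 to 8.72. Correlations without this mouse were not computed. The mice of an experiment share dissection and normalization, and these correlations are a description of 6 and 8 points.

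Across 16705 genes tested in both experiments, likeness to a member was ranked by the smaller of its Pearson correlations over the 6 and the 8 mice. Steap2 ranked 4 for Steap1 (0.85) behind Ccl27a (0.89), Cox19 (0.87) and Epn2 (0.86), and Steap1 ranked 2 for Steap2 between Sult5a1 (0.86) and Crabp2 (0.85). Steap4 was only at rank 2290 from Steap1 and 197 from Steap2, and its most similar genes were Upk3bl (0.89), Tbc1d17 (0.85) and Ap5b1 (0.85). For Steap3 they were Pear1 (0.84), Fam117a (0.81) and Igf2 (0.79), with no other member near. The PEA part of this ranking holds the difference that chose Steap1 and Steap2.

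The genes around the members were then examined, since Steap1 and Steap2 are adjacent. Within 1 Mb of a member or between members, 95 genes had values, of which 31 could be tested in the PEA experiment and 29 in the Kir2.1 experiment. After PEA exposure 0 of 31 were called by limma, against 0.179% of all genes, with 1 higher and 2 lower at an unadjusted p under 0.05. On chromosome 5 the 14 protein-coding neighbours tested had a median log2 difference of -0.07, beside -0.02 over all genes. The highest was Abcb1b at 1.02 (SE 0.70, adjusted p = 0.530 by limma), above Steap4 but with groups that overlapped.

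The nearest neighbour of Steap2 is Cfap69, a gene of cilia and flagella that is also used in OSNs, whose start lies 590 bases beyond the 3′ end of Steap2 on the same strand. It had means of 2017 ± 112 and 1802 ± 201 (SD, n = 4 per group) in PEA controls and exposed mice, a log2 difference of -0.17 (SE 0.10, adjusted p = 0.471 by limma).

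On the far side of Steap1 the next protein-coding gene is Zfp804b, with a mean under 10 in both experiments. The processed pseudogene Gm15459 lies 32.3 kb away, with a log2 difference of 0.04 after PEA exposure (adjusted p = 0.891 by limma). Another, Gm38697 at 48.9 kb, was too low to be tested, with 2.59 to 5.38 in controls and 0 to 1.22 in exposed mice. Sri, a calcium-binding protein gene 63.9 kb from Steap4, had a log2 difference of -0.23 (adjusted p = 0.642 by limma). Beside Steap3, 3110009E18Rik at 2.6 kb had -0.52 (adjusted p = 0.382 by limma) and C1ql2 on the other side was listed at 0 in PEA mice.

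In the Kir2.1 experiment 1 of the 29 neighbours tested was called, beside 0.353% of all genes. This was Adam22, a membrane protein of synapses 90.1 kb from Steap4, which fell from 1769 ± 111 to 1202 ± 29.6 (SD, n = 3 per group; log2 difference -0.56, SE 0.08, adjusted p = 0.0424 by limma). Its adjusted p was 0.0907 to 0.179 when single mice were dropped and 0.0523 with no filter on low values, and the call was also lost without the mean-variance trend and with the Xist or vomeronasal level as a covariate. The pseudogene Gm15459 ranged from 56.4 to 127 in controls and from 76.5 to 18251 in Kir2.1 mice (log2 difference 4.97, adjusted p = 0.408). Without Kir2.1 mouse 1 it was called, with an adjusted p of 0.00133. Cfap69 (-0.23, adjusted p = 0.283), Sri (0.08) and 3110009E18Rik (-0.02) were not called by limma.

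**Figure D4:**
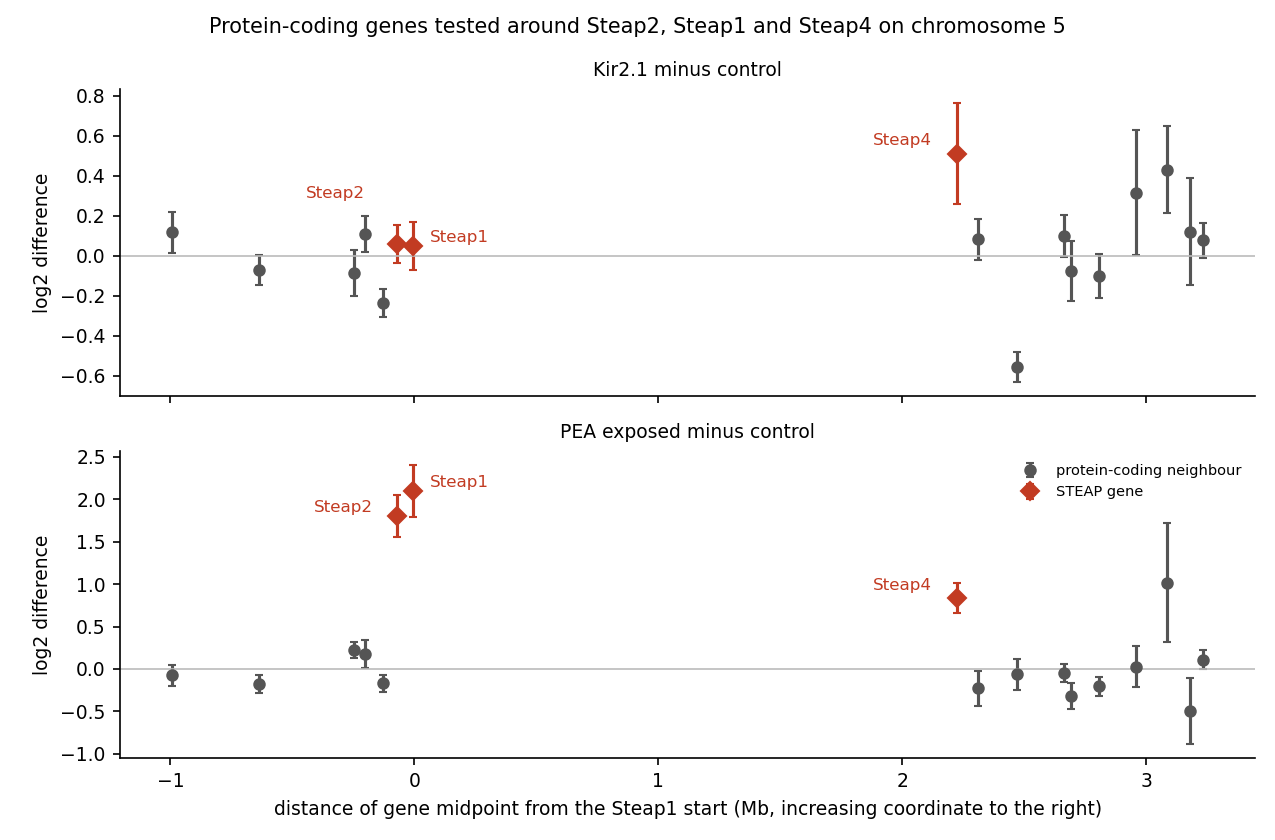
Log2 difference (treated minus control, with the SE of the limma fit) of the protein-coding genes tested near Steap2, Steap1 and Steap4, against the distance of the gene's midpoint from the Steap1 start in Mb. In the PEA experiment (bottom) Steap1, Steap2 and Steap4 lie above the gene nearest to each of them, and in the Kir2.1 experiment (top) Adam22, the lowest point at -0.56, is the only neighbour called.

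The other genes of iron and copper handling gave the setting in which STEAP enzymes act. Of 60 listed symbols, 59 had values, 56 were tested in the Kir2.1 experiment and 55 in the PEA experiment. The symbol without values, Hfe2, is an older name of Hjv, which is also listed and had values. After PEA exposure 0 of 55 were called by limma, and 10 were higher and 2 lower at an unadjusted p under 0.05, a range that held 15% of all genes (8.93% higher and 6.04% lower). The median log2 difference of the list was 0.04, beside -0.02 over all genes.

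By role, 5 of 13 iron uptake genes tested were higher at an unadjusted p under 0.05 after PEA exposure, 2 of 14 storage and release genes were higher and 2 lower, 1 of 8 regulators was higher, and 2 of 13 copper genes were higher. Of the 7 other ferric and ascorbate-dependent reductases, the enzymes nearest to the STEAP proteins in activity, 0 had an unadjusted p under 0.05 and the range was -0.17 to 0.24.

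The 5 metal genes with the smallest p after PEA exposure did not pass adjustment. They were Slc25a28, a mitochondrial iron importer (206 to 292, log2 difference 0.50, adjusted p = 0.118), and Ftl1, the ferritin light chain (2404 ± 308 to 3700 ± 713, 0.61, adjusted p = 0.129 by limma). The others were the copper chaperone Atox1 (559 to 833, 0.57, adjusted p = 0.138), Ncoa4, which delivers ferritin for breakdown (2074 to 1226, -0.73, adjusted p = 0.171), and Tmprss6, a protease of the hepcidin pathway (403 to 603, 0.59, adjusted p = 0.178). Per kilobase, Ltf (3478 normalized counts), Ftl1 (2278) and Atox1 (1287) had the highest mean levels of the list in this experiment.

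In the Kir2.1 experiment 1 of 56 metal genes was called, Slc11a2, which carries the iron that a STEAP enzyme has reduced out of the endosome. It rose from 2917 ± 183 to 4438 ± 328 (SD, n = 3 per group; log2 difference 0.60, SE 0.08, adjusted p = 0.0424 by limma), and all Kir2.1 mice were above all controls. The call was lost whichever mouse was dropped (adjusted p 0.0755 to 0.185), while the log2 difference stayed at 0.54 to 0.65. It was also lost with median centring, without the mean-variance trend and with the Xist or vomeronasal level as a covariate. Tfrc, the receptor upstream of Steap3, had 2054 ± 192 and 3224 ± 931 (log2 difference 0.61, SE 0.20, adjusted p = 0.308 by limma) with groups that did not overlap. The erythroid markers given above beside Steap3 were higher in the same mice, and their part in the Slc11a2 and Tfrc values was not tested.

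In Kir2.1 mice 5 of 56 metal genes were higher and 4 lower by the unadjusted p, beside 4.93% and 6.2% of all genes, and the list's median log2 difference was 0.05, beside 0.01 over all genes. The smallest p values after Slc11a2 belonged to Bmp6, an inducer of hepcidin (1659 to 928, -0.85, adjusted p = 0.117), Slc22a17, a receptor for the iron carrier lipocalin (-0.34, adjusted p = 0.123), and Mt3, a metal-binding metallothionein (-0.51, adjusted p = 0.199, all by limma). Of the 7 other reductases, 1 was higher at an unadjusted p under 0.05. Per kilobase, Ftl1 (17759 normalized counts), Atox1 (14365) and the metallothionein Mt2 (9246) had the highest mean levels here.

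**Figure D5:**
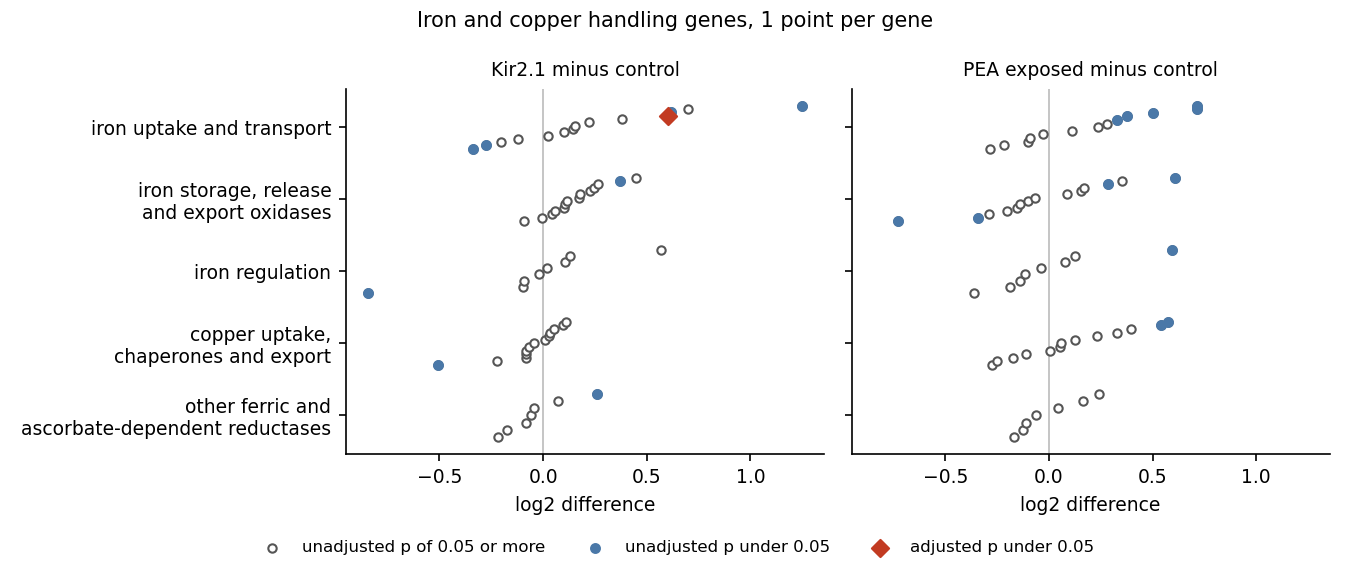
Log2 difference (treated minus control) of each tested iron or copper handling gene, in 5 groups by role and ordered by value within a group, for both experiments. Filled blue points have an unadjusted p under 0.05 by limma and the diamond marks the gene with an adjusted p under 0.05, Slc11a2 in Kir2.1 mice at 0.60.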

How the data were processed

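RNA of 14 olfactory epithelia was sequenced. Kir2.1 libraries were poly-A selected and unstranded with 40 bp single-end reads, and PEA libraries were ribosomal-RNA-depleted and stranded with 150 bp reads. The authors ran Salmon 1.3.0 against Ensembl 100 (GRCm38) with a setting for stranded reads, summed transcripts per gene with tximport 1.18.0 and normalized with DESeq2 1.30.0. The deposited values are this normalized signal per gene, called normalized counts. The values did not resolve into whole reads (10.2% to 41.5% of low values were whole multiples, within 0.02, of the commonest low value), so count tests were not run and depth is unknown. How reads of near-identical sequences were split cannot be seen from these values.

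Each experiment was tested alone. Genes with a mean of at least 10 entered the fit as log2(value + 1), and limma 3.58.1 (R 4.3.3, mean-variance trend) gave p-values adjusted by Benjamini-Hochberg over all genes, with a threshold of 0.05. Differences of low genes are understated on this scale. The script was tested on simulated data. Intervals are 95% intervals of the limma fit. Positions came from GENCODE vM21 (GRCm38), which held 95.9% of the symbols, and Python 3.11.15 was used for the rest.

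The 4 members and all gene lists were chosen with earlier results of these data known. Named beside the members were called metal or neighbouring genes, the 5 metal genes of smallest p and the 3 of highest level per kb in each experiment, the nearest measured protein-coding genes on either side, and the 3 genes most like each member. Gm15459, Gm38697, Abcb1b and single marker genes were named after their values were seen. Cell type lists are given by counts and sums. The study compared Kir2.1 pups with littermates, but nothing states that same-numbered mice came from the same litter, so the main fit has no block. Alternatives were other pseudocounts (0.5, 5), filters, variance models, scalings, the block, covariates and each mouse left out.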

Additional observations from a re-analysis of the deposited data

How the results depend on the processing

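No alternative brought Steap1, Steap2, Steap3 or Steap4 under an adjusted p of 0.05 in the Kir2.1 experiment, with lowest values of 0.733, 0.779, 0.223 and 0.240 over 17 alternatives each. When single mice were left out, the log2 differences there were -0.024 to 0.15 for Steap1, -0.033 to 0.11 for Steap2, 0.42 to 0.81 for Steap3 and 0.30 to 0.77 for Steap4. The sign changed for Steap1 (without Kir2.1 control 2 or 3 or Kir2.1 mouse 2, at -0.0033, -0.0047 and -0.024), Steap2 (without Kir2.1 mouse 2, at -0.033), Atox1 (-0.14 to 0.0088, above 0 without Kir2.1 mouse 1), Sri (-0.024 to 0.15, below 0 without Kir2.1 control 2) and 3110009E18Rik (-0.17 to 0.17, with 0.17 without Kir2.1 control 2 and 0.15 without Kir2.1 mouse 1). With each mouse left out, the PEA differences were 1.84 to 2.43 for Steap1, 1.67 to 2.09 for Steap2 and 0.68 to 0.96 for Steap4. The sign of these could not change, because every exposed mouse lay above every control. That of Steap3 ran from -0.13 to 0.05. Steap3 had no value in the PEA experiment with a mean of at least 50.

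The number of genes called in the Kir2.1 experiment was 70 in the main fit. It was 20 without a mean-variance trend, 44 with the Xist covariate and 22 with the vomeronasal covariate. With each mouse left out it was 23 to 44, and over all other alternatives it was 9 to 86. The 1 metal gene called, Slc11a2, became 0 without the trend, with median centring (adjusted p = 0.0659), with either covariate and with each mouse left out (0 to 0). The 1 neighbour called, Adam22, became 0 without a filter (adjusted p = 0.0523), without the trend, with either covariate and with each mouse left out, where the count of 0 to 1 comes from Gm15459. For PEA 31 genes were called, 52 without a filter, 20 with the vomeronasal covariate and 19 to 43 with each mouse left out, and the counts of metal and neighbouring genes were 0 under all 19 alternatives. The causes were not tested.

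Whether the replicate numbers pair the mice is not known. As deviations from group means, the correlations of same-numbered mice were -0.06, -0.01 and 0.16 for Kir2.1 and 0.13, -0.02, -0.05 and 0.10 for PEA. Such correlations cannot show whether same-numbered mice shared a litter. With a replicate block 9 genes were called in the Kir2.1 experiment and 23 in the PEA experiment, metal and neighbouring genes called were 0 in both (Slc11a2 at an adjusted p of 0.136 and Adam22 at 0.141 in Kir2.1 mice), and the adjusted p of Steap1, Steap2, Steap3 and Steap4 in Kir2.1 mice was 0.938, 0.886, 0.539 and 0.619.

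Depth is unknown, the p-values rest on 3 mice per group in the Kir2.1 experiment, and no test of the PEA difference in these genes is independent of their choice.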
